A study of Saccharomyces cerevisiae with 4 samples.

Results

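Yeast cells that run out of sugar stop dividing and enter stationary phase, a resting state in which they burn stored carbon by respiration and strengthen their walls and membranes. A set of short, little-studied genes is known from that state. The SPG genes (stationary phase gene) were named for mutants that survive poorly at high temperature once growth has stopped. TMA10 encodes a small protein found with ribosomes, the RGI genes (respiratory growth induced) encode a pair of related proteins needed for energy supply during respiration, and FMP45 encodes a membrane protein of the Sur7 family, which sits in the furrows of the plasma membrane called eisosomes.

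Described here are 8 genes, SPG1, SPG3, SPG4, SPG5, TMA10, RGI1, RGI2 and FMP45, of 6720 table rows with a gene ID (7133 rows in all). They were taken by name, and the set was picked because several of them were much higher in restricted than in non-restricted cells. The difference between the conditions is therefore given for them as a description, without a test. All 8 passed the filter of a mean of 1 FPKM or more used for the test over all genes.

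The cells were wild-type Saccharomyces cerevisiae grown at 30 °C in synthetic complete medium. The non-restricted condition (NR) had 2% glucose and the calorie-restricted condition (CR) 0.05% glucose. Total RNA was sequenced from 2 libraries per condition, labelled as biological replicates A and B. The sources used here give neither the strain background nor when and at what density cells were harvested. Values are FPKM (fragments per kilobase of feature, relative to all mapped fragments), which sets genes of different length on one scale. That scale is less sure for the shortest rows and for overlapping ones, and between CR B and the other libraries, as described below. Log2 values below are differences of log2(FPKM + 1).

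One library stood apart. Rows without a gene ID, which are noncoding RNA genes, made up 87.2% of all FPKM in CR B, against 27.4% to 34.0% in the other libraries. The FPKM of gene rows summed to 1558248 in CR B and to between 1723227 and 1804956 in the others. Levels and list medians are therefore given for CR A and CR B apart, folds and tests take both, and the part of the noncoding share in any of them was not tested. Fragment numbers were not recovered: among rows over 1500 nt, the products of FPKM and length in kb of the 5 lowest rows of each library ran from 0.0187 to 0.0396 with no common step, so the counting error of single values is unknown.

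The members share features that did not choose them. All 8 lay at their R64 position in the table, each with 1 coding exon, and every 32-nt stretch of them occurs once in the genome (100% unique). The first and last of these are not particular to the set. Of 6025 gene IDs in RefSeq R64, 5989 had that position, and the paralogs and nearest rows searched were also 100% unique. The exon number was not counted over all genes. The members are short: the median row was 435 nt, against 1092 nt over the 6355 genes tested. Only SPG5, at 1122 nt, was longer than that median. FPKM of rows as short as TMA10, at 261 nt, depends more on how fragment length is treated than that of long rows.

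The 500 bases before each start codon were searched on both strands for 4 motifs, since several members had high CR values together. They were the stress response element bound by Msn2 and Msn4 (STRE, AGGGG), the post-diauxic shift element bound by Gis1 (PDS, AGGGAT), the CCAAT box of the Hap complex (CCAAT) and the carbon source response element bound by Cat8 and Sip4 (CSRE, searched as CC and CCG with 6 bases between them). Any 6 bases were allowed in that CSRE pattern, so a CSRE here means a match to it only. Whether the inner bases suit Cat8 or Sip4 was not tested. STRE and PDS share the letters AGGG, and no match shown overlaps another. An STRE was in 34.0% of the 6019 coding-gene windows of that length and in 4 of the 8 members. A CSRE was in 20.8% of windows and in 5 members, a CCAAT box in 62.4% and 5 members, and a PDS in 15.4% and 1 member. The stretches below, read from R64 from 5′ to 3′ on the strand of the gene, were picked and hold only part of the matches. Capitals mark the motif matches. Among those not shown are 2 CSRE and 2 CCAAT boxes of SPG5 and 1 CSRE of RGI1. SPG4 held none of the 4 motifs in its window.

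RGI1 carried 4 STRE matches, a number reached by 0.449% of windows, and 3 of them lie within this stretch (chrV:291777-291862, + strand, 289 to 204 bases before the start codon):
RGI1: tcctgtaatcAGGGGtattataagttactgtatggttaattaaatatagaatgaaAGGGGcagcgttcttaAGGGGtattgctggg
SPG1 was the member with a PDS, followed by 2 CCAAT boxes, 1 of them on the other strand, and a CSRE (chrVII:962984-963082, - strand):
SPG1: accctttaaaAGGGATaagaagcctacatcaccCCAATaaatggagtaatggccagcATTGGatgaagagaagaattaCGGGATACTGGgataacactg
TMA10 had a CSRE, an STRE and a CCAAT box, all on the other strand (chrXII:783637-783769, - strand):
TMA10: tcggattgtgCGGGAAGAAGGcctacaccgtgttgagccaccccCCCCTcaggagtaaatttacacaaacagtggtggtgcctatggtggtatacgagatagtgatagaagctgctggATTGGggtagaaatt
FMP45 had a single STRE (chrIV:62084-62108, - strand):
FMP45: aaagggaaagAGGGGagtggtaaga
The STRE of SPG3 lies inside the reading frame of PSP1, which ends where SPG3 begins (chrIV:1456785-1456809, - strand):
SPG3: ttcgcagaacAGGGGgaataacaga
These matches are letters in a window. No binding was measured.

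In both CR libraries 7 of the 8 genes were above both NR libraries, by 4.73 to 101 times as a ratio of means, and SPG3 was below both. Over all genes tested 39.2% lay above in this way and 33.8% below, and 30.9% passed the limma test described further down, and as the set was picked on this contrast nothing is read from its count. Taken from the NR mean, the median log2 difference of the 8 members was 3.55 for CR A and 3.60 for CR B, and that of all 6355 genes 0.10 and 0.01. In NR the 8 genes together held 0.173% and 0.185% of the FPKM of gene rows in A and B. In CR they held 2.73% and 3.89%, most of it from TMA10, SPG1 and SPG4.

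**Figure D1:**
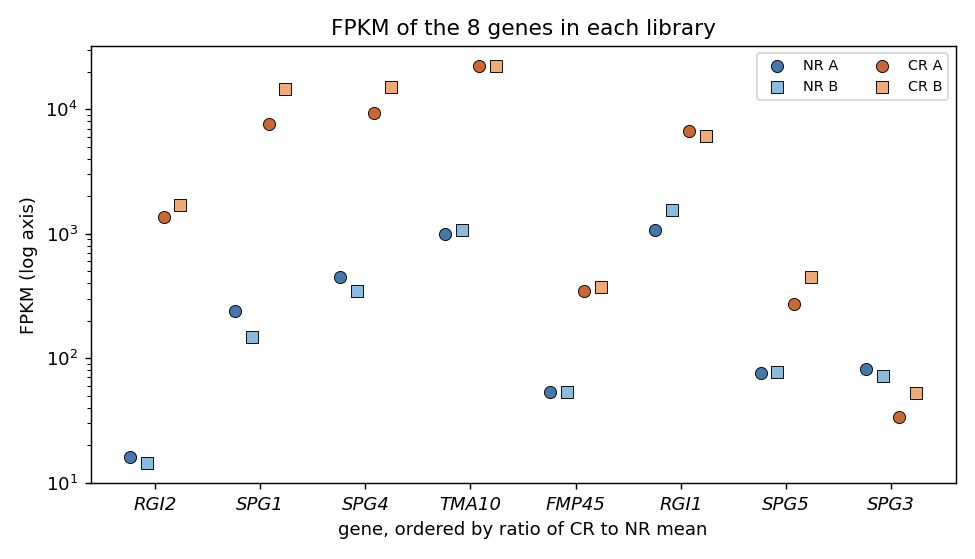
FPKM (log axis) of the 8 genes in the 4 libraries, 1 point per library, with circles for replicate A and squares for B. The CR points lie above the NR points for 7 genes, and below them for SPG3, at 33.5 and 52.5 against 82.6 and 71.9 FPKM.

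Among the SPG genes, SPG1 and SPG4 had the highest CR levels. SPG1 (YGR236C, chrVII:962530-962817, - strand), which encodes a small protein found in mitochondria, had 241 and 148 FPKM in the NR libraries A and B, and 7597 and 14591 FPKM in the CR libraries A and B. Its mean was 195 ± 66.1 in NR and 11094 ± 4945 in CR (mean ± SD, n = 2 here and below), 57.0 times as high. Counted from the most abundant gene, it moved from rank 981 and 1431 of 6355 in NR to rank 25 and 15 in CR.

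SPG4 (YMR107W, chrXIII:483014-483361, + strand), whose molecular role is unknown, was at 449.7 and 344 FPKM in NR and at 9303 and 15115 in CR. The means were 397 ± 74.5 and 12209 ± 4110 FPKM, a ratio of 30.8. Its CR ranks were 19 and 14. In both SPG1 and SPG4 the NR A value was above NR B and the CR B value above CR A.

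SPG5 (YMR191W, chrXIII:645656-646777, + strand) encodes a regulator of the proteasome in stationary phase. It was at 75.6 and 77.4 FPKM in NR and at 271 and 452 in CR, a ratio of means of 4.73. Its NR libraries were nearly equal, while the CR libraries were apart by 0.74 on the log2 scale.

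SPG3 (YDR504C, chrIV:1456311-1456694, - strand) went the other way from the rest of the set. The row was at 82.6 and 71.9 FPKM in NR and at 33.5 and 52.5 in CR, a ratio of means of 0.557. Its log2 difference was -1.18 for CR A and -0.54 for CR B. SPG3 thus carries the name of the group without its higher CR level in these libraries.

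TMA10 (YLR327C, chrXII:783127-783387, - strand) had the highest CR level of the 8. It was at 986 and 1079 FPKM in NR and at 22378 and 22202 in CR, with means of 1032 ± 65.1 and 22290 ± 124 and a ratio of 21.6. It was the seventh most abundant gene row (rank 7) in both CR libraries, from rank 225 and 217 in NR. Both replicate pairs lay within 0.13 of each other on the log2 scale.

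The RGI genes were both higher in CR, from very different starting levels. RGI1 (YER067W, chrV:292066-292551, + strand) was already abundant in NR, at 1079 and 1545 FPKM, and was at 6676 and 6129 in CR, a ratio of means of 4.88. RGI2 (YIL057C, chrIX:247902-248396, - strand) was at 16.2 and 14.3 FPKM in NR and at 1358 and 1705 in CR. The ratio of 101 was the largest among the 8, and its rank went from 5542 and 5586 to 185 and 112.

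FMP45 (YDL222C, chrIV:60872-61801, - strand) has also been linked to sporulation. It was at 53.5 and 53.3 FPKM in NR and at 344 and 370.0 in CR, a ratio of means of 6.69. Its replicates were close in both conditions, within 0.10 on the log2 scale.

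The CR replicates did not differ by the same amount in all members. CR B minus CR A on the log2 scale was 0.94 for SPG1, 0.74 for SPG5, 0.70 for SPG4 and 0.63 for SPG3, so all 4 SPG genes were higher in CR B, including the one that was lower in CR than in NR. It was 0.33 for RGI2, 0.10 for FMP45, -0.01 for TMA10 and -0.12 for RGI1. Over all genes the median was -0.15 and 9 in 10 genes lay between -1.07 and 0.92. All 8 members lay above that median, so a shift towards CR B was not particular to the SPG genes. Between the NR replicates the largest differences of B minus A were -0.70 for SPG1, 0.52 for RGI1 and -0.38 for SPG4, against a range for 9 in 10 genes of -0.64 to 0.41.

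**Figure D2:**
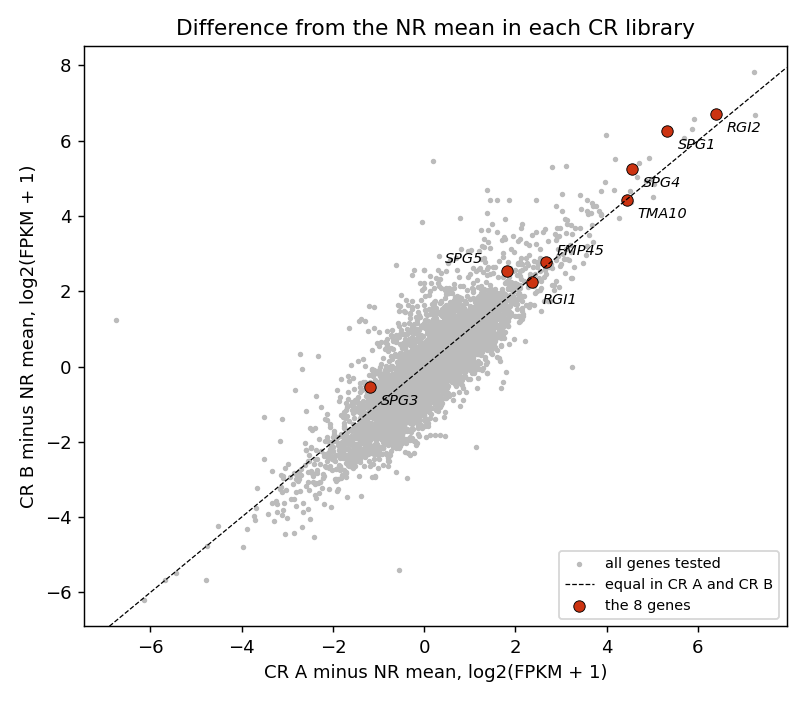
Log2 difference from the NR mean in CR A (x axis) and CR B (y axis), with the 6355 genes tested in grey and the 8 genes in red. The 4 SPG genes lie above the dashed line of equality, by 0.63 to 0.94, while TMA10 and RGI1 lie on it or just under it, at -0.01 and -0.12.

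Of the members, 4 belong to 3 listed paralog pairs. RGI1 and RGI2 share 65.1% of bases in an alignment of their reading frames, with no identical run longer than 11 nt. RGI1 was the more abundant in every library, 66.8 and 108 times as high as RGI2 in NR A and B, but only 4.92 and 3.59 times in CR A and B. The gap between the pair therefore narrowed in both CR libraries. These ratios carry a limit: the RGI1 row overlaps others whose reads cannot be told apart from its own, as described below.

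TMA10 and its paralog STF2, first described as a factor that stabilises the inhibited form of ATP synthase, share 66.7% of bases. STF2 was at 3129 and 3852 FPKM in NR and at 6722 and 7972 in CR. It had 3.17 and 3.57 times the level of TMA10 in NR, while TMA10 had 3.33 and 2.78 times the level of STF2 in CR, so the order of the pair switched. Tested with limma, STF2 itself did not pass (log2 difference 1.08, SE 0.32, Benjamini-Hochberg adjusted p = 0.054). It passed as higher under 6 of 13 alternatives, among them without CR A and without CR B.

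FMP45 and YNL194C, both of the Sur7 family, share 57.5% of bases and kept their order. YNL194C was at 79.9 and 95.1 FPKM in NR and at 706 and 577 in CR, and rose by the limma test (log2 difference 2.86, SE 0.23, adjusted p = 0.0030), though not without NR A. It stood 1.49 to 2.05 times above FMP45 in the 4 libraries. Its upstream window also held a CSRE, not shown, which that of FMP45 lacked. It held 4 STRE matches, of which 2 are shown (chrXIV:273936-274004, - strand), against the single one of FMP45 above:
YNL194C: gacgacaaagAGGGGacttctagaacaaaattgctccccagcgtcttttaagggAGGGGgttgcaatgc

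**Figure D3:**
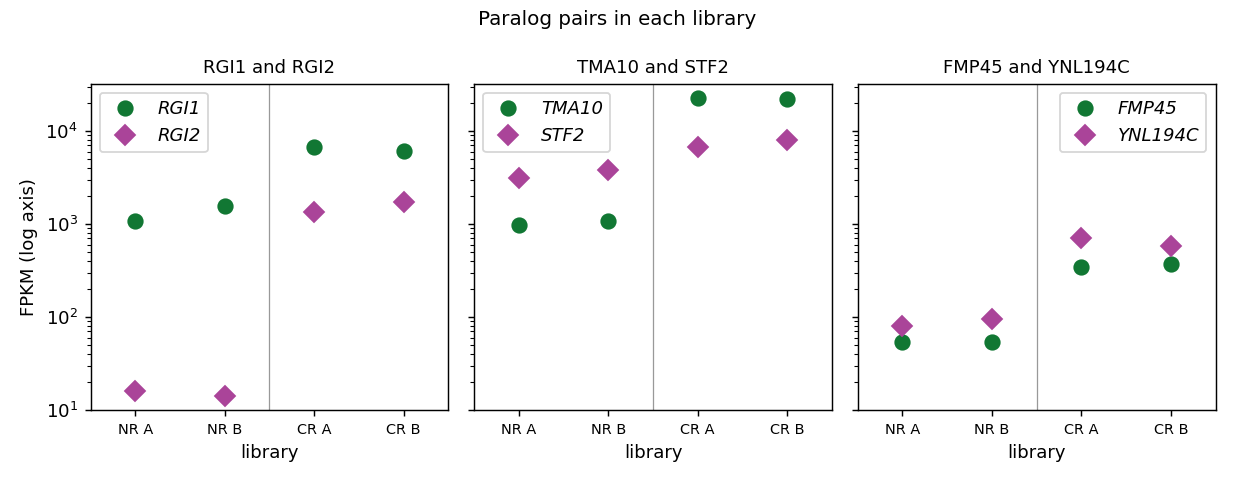
FPKM (log axis) of both genes of each paralog pair in the 4 libraries, 1 point per library. The RGI pair drew closer in CR, TMA10 passed STF2 (22378 and 22202 against 6722 and 7972 FPKM in CR), and FMP45 stayed below YNL194C throughout.

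The nearest tested rows on each side of the members were set beside them. These are not always the adjacent genes. Upstream of SPG4, TMA10 and RGI2 a RefSeq gene lies at 1826, 966 and 453 nt, closer than the rows used, at 2823, 1525 and 1594 nt. Of 16 nearest rows, 1 on each side, 7 passed the limma test as higher and 0 as lower, against 17.7% and 13.2% of all genes tested, and 2 of the 7 overlap RGI1 (1 lower at an unadjusted p under 0.05; VHR1, upstream of RGI2, passed as lower under common-median scaling and ILV2 without CR A). For SPG4, SPG5 and RGI2 neither neighbour passed. SPG4 had YKU80 upstream (38.2 and 36.1 FPKM in NR, 27.4 and 29.8 in CR) and ILV2 downstream (90.2 and 84.1 in NR, 120.3 and 37.1 in CR). SPG5, at 271 and 452 FPKM in CR, stood between SGS1 and GYL1, which were at 22.2 to 34.0 FPKM there.

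SPG3 and PSP1, which abut on the same strand, differed in direction. PSP1 was at 61.3 and 65.4 FPKM in NR and at 109.2 and 103.0 in CR (log2 difference 0.73, SE 0.19, adjusted p = 0.039 in limma), and lost its call under common-median scaling, quantile normalization, without NR A and without NR B. Around SPG1, YGR237C rose (52.1 and 55.6 to 144 and 131 FPKM), as did MIC26, a gene for a mitochondrial inner membrane organising protein (113 and 120.4 to 207 and 188 FPKM, adjusted p = 0.041 in limma). MIC26 lost its call under common-median scaling, quantile normalization, the replicate block, without NR A and without NR B. Their CR levels were far below those of SPG1.

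NMA1, an NAD synthesis gene upstream of TMA10, rose from 46.4 and 43.8 to 143 and 138 FPKM (adjusted p = 0.0067 in limma). HBT1, downstream of FMP45 and a gene of polarised growth, rose from 43.0 and 45.3 to 279.6 and 149.9 FPKM (adjusted p = 0.012). Without NR A none of the 7 neighbour calls remained, and without NR B only that of YER067C-A did.

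RGI1 was the member whose row overlaps others. YER066C-A covers 138 nt of it and YER067C-A 312 nt, and both names denote the other strand. YER066C-A had 250.4 and 346 FPKM in NR against 1387 and 2864 in CR, and YER067C-A at 70.2 and 135 in NR and at 514 and 614 in CR. The sources used here do not say whether the authors' counting used strand, so reads of RGI1 and of these rows cannot be told apart. YIL058W, 703 nt downstream of RGI2, was at 60.3 and 45.3 FPKM in NR but at 159 in CR A against 1136 in CR B, and did not pass (adjusted p = 0.056 in limma), though it passed as higher under 4 of 13 alternatives, among them without CR A and without CR B.

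**Figure D4:**
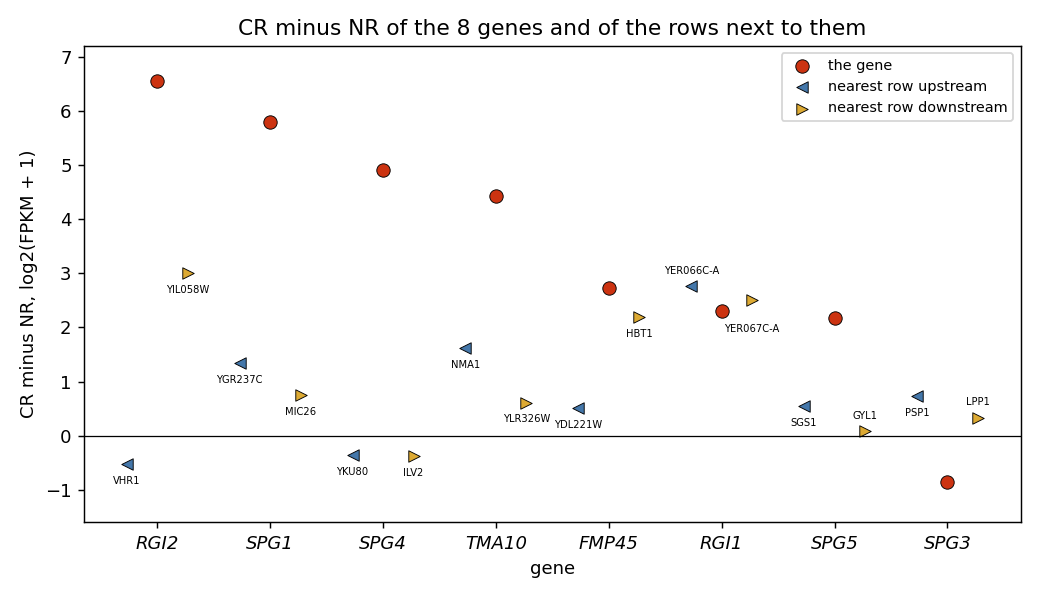
CR minus NR on the log2(FPKM + 1) scale for the 8 genes (circles) and for the nearest tested row upstream and downstream of each (triangles). VHR1, YKU80 and ILV2 lie below 0 beside RGI2 (6.56) and SPG4 (4.91), while HBT1 and the 2 rows overlapping RGI1 lie close to their neighbour's value.

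Genes with the most similar levels were found by the Euclidean distance of log2(FPKM + 1) over the 4 libraries, and the 2 nearest of each member are named. The same libraries hold the contrast by which the set was picked. Members with a large rise therefore lie near other genes with one by construction, and no shared role is read from this. SPG1 and SPG4 were each other's nearest gene, at a distance of 1.54. RGI2 lay nearest to JEN1, the lactate and pyruvate transporter gene (1.32), and ADH2, the gene for the alcohol dehydrogenase that uses ethanol (1.36). TMA10 lay nearest to COX26, a cytochrome c oxidase subunit gene (0.75), and FMP16 (0.83).

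FMP45 lay at 0.32 from GUT1, the glycerol kinase gene, which was at 49.0 and 55.8 FPKM in NR and at 407 and 411 in CR, and at 0.49 from GID11. SPG5 lay at 0.33 from ISF1 and 0.43 from UGX2, and RGI1 at 0.78 from the stress gene DDR2 and 0.84 from RTC3. The second gene of SPG4 was COX26 (2.12), and that of SPG1 was ALD4, a mitochondrial aldehyde dehydrogenase gene (3.13). These are the least distant genes and not close ones. ALD4 was at 2706 and 2746 FPKM in CR, far below SPG1. SPG3 lay at 0.29 from both YGL177W and COG1.

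In 5 lists of genes tied to what the members do, the share that passed was set beside 17.7% higher and 13.2% lower over all genes tested (limma, two-sided, Benjamini-Hochberg adjusted p under 0.05; 1126 higher and 836 lower). The lists were chosen with earlier results of these data known, so their shares are a description and not independent of the data. Over all genes, scaling every library to the same median gave 955 higher and 1174 lower, and the median shifted from 0.06 to -0.07. In the list of stationary phase and quiescence genes 10 of 20 rose and 2 fell, with a median log2 difference of 1.01 (0.92 for CR A, 1.08 for CR B). DCS2, which encodes a regulator of mRNA cap breakdown, rose 6.08-fold as a ratio of mean FPKM, from 134 and 172 to 955 and 906. RTN2, a reticulon-like gene, rose from 149 and 159.6 to 951 and 800.4 FPKM. The hydrophilin genes SIP18 and GRE1, linked to survival of drying, rose from 342 and 386 to 1888 and 1679.8 FPKM and from 81.2 and 71.3 to 286 and 288 FPKM (limma adjusted p from 0.0039 to 0.0057 for these 4 genes).

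The 2 that fell, named after their values were seen, were HSP26, a small heat shock protein gene (258 and 235 to 119 and 108 FPKM), and SNZ1, a vitamin B6 synthesis gene named for its stationary phase expression (62.7 and 97.3 to 37.0 and 37.3 FPKM). SSA3, an HSP70 gene, did not pass, with 74.7 and 77.4 FPKM in NR against 76.1 and 64.7 in CR, and was also named after its values were seen. Genes known from stationary phase were found on both sides. Without NR A none of the list passed, and without NR B 2 were higher and 0 lower.

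In the list of eisosome and Sur7 family genes, the setting of FMP45, 8 of 14 rose and 0 fell by the limma test (median 0.95, with 0.92 for CR A and 0.99 for CR B; 0 lower at an unadjusted p under 0.05, and 1 called lower without CR A). Beside YNL194C these included PIL1, a core eisosome component (826 and 1130.0 to 2458 and 2461 FPKM), the signalling gene SLM1 (88.3 and 88.2 to 181 and 249.7 FPKM) and the kinase gene PKH2 (25.4 and 21.3 to 61.4 and 63.5 FPKM), with adjusted p between 0.011 and 0.023 in limma. SUR7, which gave the family its name, was at 192 and 156 FPKM in NR and at 160.1 and 66.6 in CR and did not pass (named after its values were seen). Higher calls came to 0 without NR A and 1 without NR B.

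Around SPG5, 3 of 15 proteasome assembly factors and regulators rose and 0 fell by the limma test (median 0.38, with 0.34 for CR A and 0.19 for CR B; 0 lower at an unadjusted p under 0.05). ADC17 is another name of TMA17 and added no row. RPN4, which encodes the activator of proteasome genes, rose from 98.9 and 105 to 433 and 358 FPKM (log2 difference 1.94, SE 0.21, limma adjusted p = 0.0061). TMA17, a proteasome assembly chaperone gene, rose from 714 and 858 to 4355 and 3141 FPKM, and NAS2 from 60.9 and 55.6 to 98.8 and 123 FPKM. No call of the list remained without NR A or without NR B, and 5 were higher without CR B.

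The genes that share the TMA name, given to proteins found with ribosomes, mostly did not follow TMA10. Of 10, 4 fell and 1, TMA17, rose (median -0.66, with -0.50 for CR A and -0.82 for CR B). TMA23 fell from 283 and 246 to 29.0 and 34.9 FPKM (log2 difference -3.01, SE 0.21, limma adjusted p = 0.0027), TMA16 from 421 and 331 to 72.8 and 51.9, and TMA20 from 187 and 194 to 71.0 and 55.8. The fourth was TMA19 (5213 and 6057 to 2696 and 1643 FPKM), named after its values were seen. Without NR A 1 fell and 0 rose, and without NR B 2 fell and 0 rose.

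Among 17 regulators of stationary phase and respiratory growth 7 rose and 2 fell (median 0.57, with 0.90 for CR A and 0.81 for CR B). The row named USV1, counted here without a call, is 75 nt long and lies outside the R64 position of that gene. CAT8 and SIP4, whose products bind the CSRE, rose from 26.8 and 29.3 to 183 and 160 FPKM and from 4.57 and 3.99 to 25.1 and 48.3 FPKM (limma adjusted p = 0.0030 and 0.0085). ADR1, an activator of genes for ethanol and fatty acid use, rose from 66.9 and 61.2 to 152 and 181 FPKM. ERT1, a regulator of gluconeogenic genes, fell from 22.7 and 26.4 to 7.61 and 7.86 FPKM. MSN4, named after its values were seen, fell from 52.5 and 50.7 to 27.3 and 22.3 FPKM.

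MSN2 did not pass, at 36.2 FPKM in both NR libraries and 49.0 and 31.1 in CR, while GIS1, whose product binds the PDS, rose (44.7 and 37.3 to 110.0 and 84.0 FPKM). HAP4, a gene of the Hap complex, did not pass either (133 and 119 to 208 and 137 FPKM, adjusted p = 0.27 in limma). MSN2, GIS1 and HAP4 were named after their values were seen. Higher calls among the regulators came to 1 without NR A, 1 without NR B and 10 without CR B, and lower calls to 0 without either NR library.

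**Figure D5:**
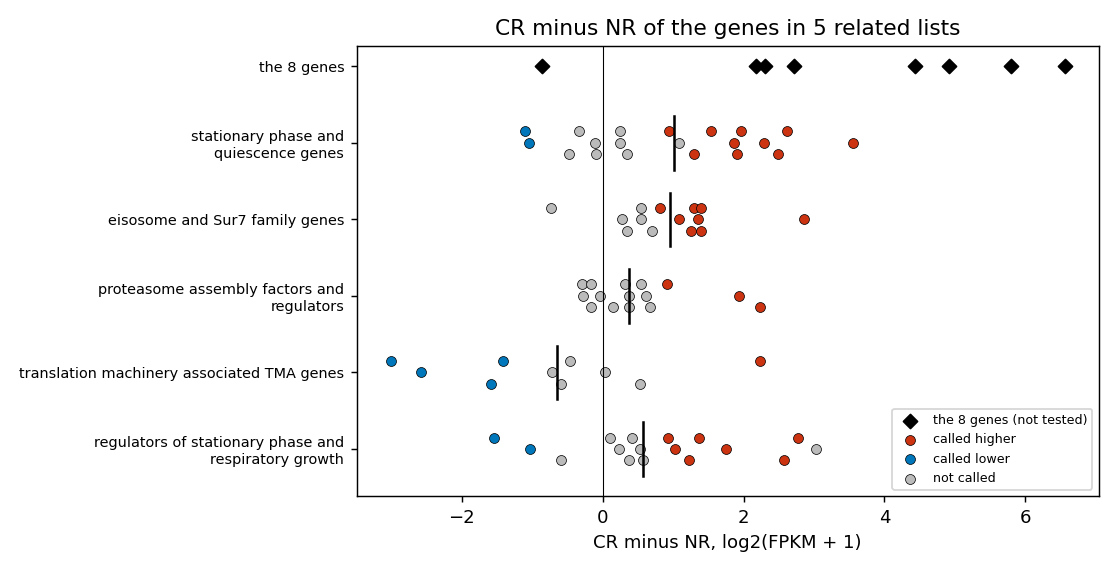
CR minus NR on the log2(FPKM + 1) scale for the genes of 5 lists, 1 point per gene, coloured by the limma call, with a bar at each list's median. The 8 genes, shown untested at the top, run from -0.86 (SPG3) to 6.56 (RGI2), and the list medians from -0.66 (TMA genes) to 1.01 (stationary phase genes).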

How the data were processed

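The submitters' processing notes list Cufflinks 2.0.2, CASAVA 1.8.2, Bowtie with no version, and build sacCer2. The authors deposited 1 table of FPKM with a column per library, and all 4 columns were matched by name (0 left over). Of 6025 gene IDs in RefSeq R64, 5989 had the R64 position once 1 was added to the start, so R64 positions and sequences, counted from 1, are given.

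The 413 rows without a gene ID were kept out of the test. CR was compared with NR by limma 3.58.1 in R 4.3.3 on log2(FPKM + 1), two-sided with an intensity trend and no covariate, over the 6355 gene rows that averaged at least 1 FPKM, with Benjamini-Hochberg adjustment at 0.05. P-values set the difference between conditions against the spread between 2 libraries per group. That spread is pooled over both groups and drawn towards a trend over all genes tested. Permutation of 2 against 2 alone cannot reach 0.05. The 8 members and all lists were chosen with earlier results of these data known. Named were the members, their paralogs, the nearest tested row on each side, the 2 genes nearest in level, and up to 4 genes per list with the smallest adjusted p among those that passed. Paralogs were aligned with Biopython 1.88. Alternatives were other pseudocounts, filters, scalings, a replicate block, no trend, and leaving out each library. The upstream stretch of RGI2 is not reported here.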

Additional observations from a re-analysis of the deposited data

How the results depend on the processing

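The median log2 difference of the 8 members (3.57) stayed between 3.44 and 3.67 over 13 alternatives, and no member changed direction in any of them. Much of this was fixed in advance. The NR and CR values of no member overlap, so leaving out a library could not turn a direction. The filters, the replicate block and the trend setting leave these differences unchanged. Nothing is read from this steadiness. SPG3 ran from -1.18 without CR B to -0.54 without CR A. The calls over all genes rested on the NR pair. Leaving out each library in turn gave 72 to 1632 higher and 44 to 1656 lower genes, and 1 to 35 higher and 1 to 13 lower among the genes of the 5 lists (28 and 8 with all libraries). The low ends came without NR A, when the spread comes from the CR pair alone. The numbers without NR B were 123 higher and 111 lower over all genes. Without a filter on low values 464 genes were lower (836 with it) and 1 stationary phase gene fell (2 with it). The labels do not say that the letters A and B pair libraries, and the B minus A differences of NR and CR had a correlation of 0.08 over 6355 genes. With the letter as a replicate block 1150 genes were higher and 986 lower. Fragment numbers are unknown, so depth sets no stated limit.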
